A study of Mus musculus with 100 samples.

Results

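The genes described here are 8 transcription factors of the naive pluripotency network, Esrrb, Tfcp2l1, Klf2, Klf5, Tbx3, Prdm14, Zfp42 and Sall4, chosen by name out of the 25965 genes of the expression table. In female and male iPSCs made from mouse embryonic fibroblasts (MEFs), all 8 were above the MEF level. The rise was smallest for Tbx3 and Klf2, at 5.29-fold and 5.43-fold. Against ESCs kept in 2i, Prdm14 and Tfcp2l1 were lower in the iPSCs, by 3.70-fold and 2.96-fold, and the other 6 did not pass the test. These calls rest on replicate libraries as units, with 1 line of ESCs. Prdm14 was also called higher in the female than in the male iPSC lines when libraries were the units. With the 4 line means as units it was not called (limma adjusted p = 0.272). Prdm14, Zfp42 and Tfcp2l1 were read unequally from their 2 alleles. Prdm14 and Zfp42 were read mostly from the paternal allele, with 1 library as an exception for Zfp42, and Tfcp2l1 mostly from the maternal one.

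Mouse pluripotent cells of the naive state, the state of the preimplantation epiblast, are held by a network of transcription factors around Oct4, Sox2 and Nanog. LIF feeds this network through Stat3, to which Klf4 and Tfcp2l1 respond, inhibition of GSK3 feeds it through Esrrb and Tfcp2l1 by lifting repression by Tcf7l1, and inhibition of MEK removes the FGF and ERK signal that pushes cells out of the naive state. The 2i medium holds both inhibitors, and several of these genes are lost when cells move to the formative and primed states.

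RNA was sequenced from 18 libraries, 3 biological replicates in each of 6 groups. Female MEFs came from a mid-gestation F1 hybrid embryo whose mother carried a doxycycline-inducible cassette of Oct4, Sox2, Klf4 and c-Myc on the C57BL/6J (BL6) background and whose father was Mus musculus castaneus (CAST). F KSR2 and F KSR4, both female, and M KSR3 and M KSR5, both male, carry the same cassette and were reprogrammed from such MEFs with doxycycline in a serum-free medium with Knockout Serum Replacement (KSR) and LIF. Each line grew from a single picked colony and was then expanded without doxycycline on feeder cells. The MEFs of each sex came from 1 embryo, so that sex, embryo and clone cannot be told apart. TX 2i ESCs are the female TX1072 line, likewise a cross of a BL6 female with a CAST male, kept in a medium with serum, LIF and the MEK and GSK3 inhibitors of 2i. They are 1 line, and cell type, serum and inhibitors all separate them from the KSR-iPSCs, and from M KSR3 and M KSR5 in sex. The series holds no RNA library of male MEFs, and the male lines were compared with female MEFs.

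Levels are the deposited log2 RPM (reads on a gene per 1000000 reads of the total the authors used for that library), where an increase of 1 is a doubling and a gene without reads stands at the value of 0.9 read. Between 13183036 and 17921280 reads fell on genes per library (median 15722711), and 1 read stood at a log2 level of -4.29 to -3.89. Differences were tested with limma across all genes, and a gene was called at a Benjamini-Hochberg adjusted p below 0.05. As a check of the labels, 14 fibroblast markers summed to 22820 to 34970 RPM in MEFs, to 20.7 to 190.2 RPM in KSR-iPSCs and to 45.3 to 59.3 RPM in TX 2i ESCs. The highest KSR-iPSC sum belonged to M KSR5 replicate 3. In each KSR-iPSC library, 1 to 4 of the 14 fibroblast markers had 0 reads. Fap had 0 reads in 10 of the 12 KSR-iPSC libraries and 1 read in the others. Col1a1 had 45 to 1095 reads in these libraries and Col3a1 3 to 428, beside 207483 to 286441 and 43182 to 65931 in MEFs. The 8 factors were present in every library of the iPSCs and ESCs.

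The factors lie on 6 chromosomes (GRCm38). Esrrb, an orphan nuclear receptor (ENSMUSG00000021255), spans chr12:86361117-86521628 on the plus strand. Tfcp2l1, a grainyhead-family factor and target of Stat3 (ENSMUSG00000026380), lies at chr1:118627945-118685167 on the plus strand, and Prdm14, a PR domain factor that holds down FGF signalling and DNA methyltransferases (ENSMUSG00000042414), at chr1:13113457-13127163 on the minus strand. Klf2 and Klf5, zinc finger factors of the Krüppel-like family (ENSMUSG00000055148 and ENSMUSG00000005148), lie at chr8:72319033-72321656 and chr14:99298691-99313405, both on the plus strand. Zfp42, also called Rex1 and a classical marker of naive cells (ENSMUSG00000051176), lies at chr8:43295068-43307009 on the minus strand. Sall4, a zinc finger partner of Oct4 and Nanog (ENSMUSG00000027547), spans chr2:168748332-168767943 on the minus strand. Tbx3, a T-box factor (row chr5:119670669-119684724, plus strand), carries in the table the identifier ENSMUSG00000087516 of its antisense neighbour. Reads were counted by strand, so that this row holds the plus strand on which Tbx3 lies.

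Promoters of 4 of the 8 genes, Tfcp2l1, Zfp42, Klf2 and Esrrb, were in the RefSeq table (GRCm38.p6), and Klf5, Tbx3, Prdm14 and Sall4 did not match. The 250 bases before the start site are shown, in the direction of the gene, for Tfcp2l1, which was lower in KSR-iPSCs, for Zfp42, which was read mostly from the paternal allele, and for the start of Esrrb at which its row begins. Capitals mark matches to 2 binding sequences of the network and 1 of LIF signalling, each searched on both strands: the Klf sequence GGGNGTGG, the octamer ATTTGCAT read by Oct4, and the STAT sequence TTCNNNGAA.
Tfcp2l1, chr1:118627695-118627944, plus strand: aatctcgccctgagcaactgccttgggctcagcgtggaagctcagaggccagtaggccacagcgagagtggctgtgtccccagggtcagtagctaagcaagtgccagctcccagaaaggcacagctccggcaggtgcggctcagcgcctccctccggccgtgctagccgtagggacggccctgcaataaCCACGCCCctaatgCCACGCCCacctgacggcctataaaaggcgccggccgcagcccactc
Zfp42, chr8:43307010-43307259, minus strand: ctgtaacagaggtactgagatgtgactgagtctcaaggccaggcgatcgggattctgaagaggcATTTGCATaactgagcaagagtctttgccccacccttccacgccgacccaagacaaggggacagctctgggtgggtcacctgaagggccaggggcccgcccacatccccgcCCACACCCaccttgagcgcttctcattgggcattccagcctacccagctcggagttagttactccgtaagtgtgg
Esrrb, chr12:86360867-86361116, plus strand: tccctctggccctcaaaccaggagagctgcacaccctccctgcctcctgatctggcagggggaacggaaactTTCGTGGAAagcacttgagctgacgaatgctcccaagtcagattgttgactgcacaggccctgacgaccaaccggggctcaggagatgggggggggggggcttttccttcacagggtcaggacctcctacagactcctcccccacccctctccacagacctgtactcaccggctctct
Tfcp2l1 held 2 Klf matches, beginning 61 and 47 bases before its start. Zfp42 held 1 Klf match at 75 bases and 1 octamer at 186 bases, and Esrrb 1 STAT match at 178 bases. No match overlapped another. Over all 32851 RefSeq promoters, 15.9% held the Klf sequence, 1.6% the octamer and 7.02% the STAT sequence in the same window. The Esrrb sequence TCAAGGTCA (0.387% of all promoters) and the TCF/LEF sequence CTTTGAT (3.21%) matched none of the promoters of the 4 genes, and Klf2 and the second RefSeq start of Esrrb held no match at all. A match is a run of letters and not a measured site.

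The first question was how far reprogramming had brought each factor from the MEF level. Prdm14, Zfp42 and Sall4 had 0 reads in each of the 3 MEF libraries, and Esrrb had 1, 1 and 0. Tfcp2l1 had 9, 5 and 13 reads. The other 3 factors were already expressed in MEFs. Klf2, which also acts in endothelial and other somatic cells, had 788, 1048 and 987 reads, Tbx3, a regulator of limb and heart development, 275, 433 and 406, and Klf5, a factor of epithelial and smooth muscle cells, 71, 197 and 135.

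All 8 factors rose in the KSR-iPSCs against MEFs, where 41.8% of the 14632 genes tested were called higher, and in TX 2i ESCs, where 37.5% were. Every pluripotent library lay above every MEF library for each of them, and the share of all genes with this pattern was not counted. Of the genes without MEF reads, Prdm14 was at least 149-fold higher in KSR-iPSCs and, in TX 2i ESCs, at least 551-fold higher, Zfp42 at least 1439-fold and 2069-fold higher, and Sall4 at least 1458-fold and 1159-fold higher, each taken against the 3 reads that a count of 0 allows per MEF library. Esrrb was 12650-fold higher in KSR-iPSCs (95% counting interval of its 2 MEF reads 3501 to 104400). Tfcp2l1, with few MEF reads, rose 389.9-fold in KSR-iPSCs and 1155-fold in TX 2i ESCs, and Klf5 rose 18.7-fold and 15.7-fold. Klf2 rose 5.43-fold and 9.06-fold, with a log2 difference of 2.44 in KSR-iPSCs (SE 0.28, limma adjusted p = 4.3e-07). Tbx3 rose 5.29-fold and 9.84-fold, with a log2 difference of 2.40 (SE 0.40, limma adjusted p = 3.41e-05). The lowest Tbx3 libraries, F KSR2 replicate 2 at 5.20 and M KSR5 replicate 2 at 5.25, were still above the highest MEF library at 4.46.

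**Figure D1:**
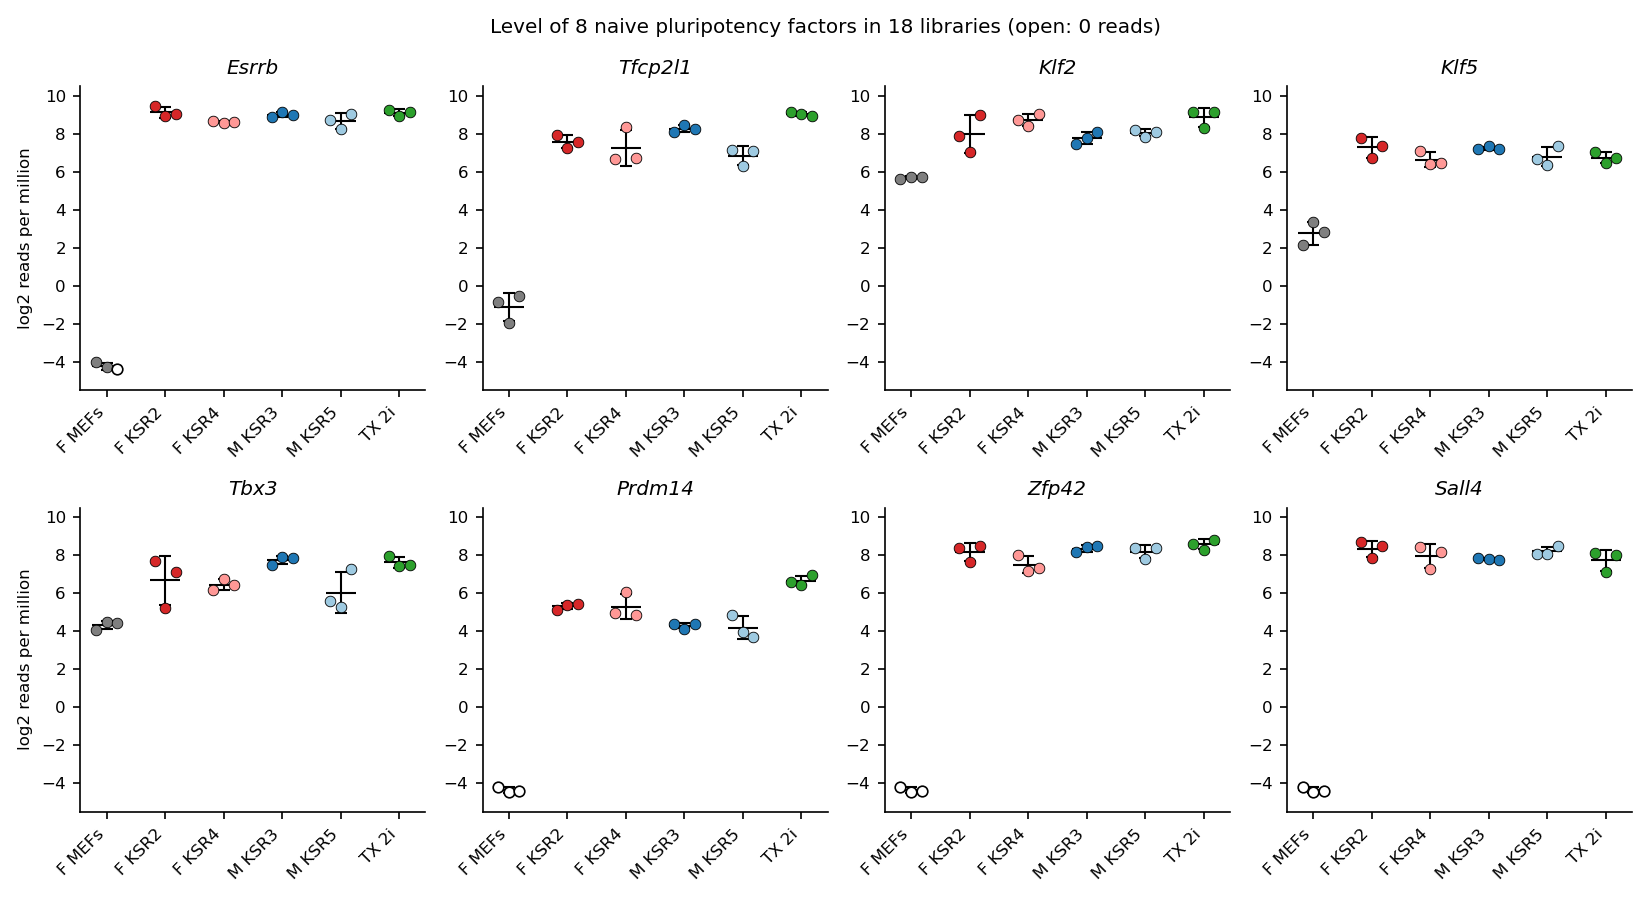
Level of the 8 factors in each of the 18 libraries (log2 RPM, points) with the mean and SD of each group of 3 (bars). Open points mark libraries with 0 reads. Every pluripotent library lies above every MEF library in all 8 panels, and the TX 2i libraries lie above all 12 KSR-iPSC libraries for Tfcp2l1 and Prdm14.

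The factors were not equally abundant. Per kilobase of exon, Klf2 and Zfp42 were highest in TX 2i ESCs, with group medians of 303.8 and 207.6 RPM per kilobase (RPKM), and Esrrb followed with 92.0. Tfcp2l1 stood at 55.7, Sall4 at 46.3, Prdm14 at 37.7, Klf5 at 29.4 and Tbx3 at 26.7. In the KSR-iPSC lines Prdm14 was the lowest or the second lowest of the 8 by this measure, with medians of 16.3 in F KSR2 and 12.3 in F KSR4 and, among the male lines, 8.10 in M KSR3 and 6.14 in M KSR5.

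The second question was how the KSR lines compare with the 2i state. Of the 8 factors, 2 were called lower in the mean of the 4 KSR-iPSC lines than in TX 2i ESCs and 0 higher. Over all genes 12.0% were called lower and 23.0% were called in either direction. With 1 mean per line as the unit of the fit, which leaves 4 values for the iPSCs and 1 for the ESCs, neither was called (limma adjusted p = 0.177 for Prdm14 and 0.191 for Tfcp2l1). The median difference of the 8 was -0.63 on the log2 scale, beside -0.0045 over all genes tested. In bulk RNA, fewer cells that express a gene and less of its RNA per cell cannot be told apart. Of 7 tested markers of primitive endoderm, 6 were also called higher in KSR-iPSCs. The 9 on that list summed to 30.8 to 216.0 RPM in KSR-iPSCs, 12.6 to 25.6 RPM in TX 2i ESCs and 125.1 to 177.4 RPM in MEFs. Of these, Afp had 0 reads in all 12 KSR-iPSC libraries, and Ttr 0 reads in 9 of them and at most 3 in the others. Their part in the results was not tested.

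In the mean of the 4 lines, Prdm14 had the largest decrease of the 8, while in F KSR2 and F KSR4 taken singly that of Tfcp2l1 was larger. Its log2 levels were 6.59, 6.44 and 6.94 in the TX 2i libraries. They were 5.12, 5.39 and 5.45 in F KSR2 and 4.97, 6.04 and 4.82 in F KSR4. They were 4.38, 4.13 and 4.38 in M KSR3 and 4.87, 3.98 and 3.70 in M KSR5. All 12 KSR-iPSC libraries were below all 3 TX 2i libraries, a pattern that 6.21% of all genes tested showed. The difference was -1.89 (SE 0.26, limma adjusted p = 7.02e-05), and it was called in each line on its own.

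For Tfcp2l1, too, none of the 12 KSR-iPSC libraries reached the TX 2i level. The TX 2i libraries stood at 9.16, 9.04 and 8.94. Those of F KSR2 stood at 7.91, 7.25 and 7.58, and those of F KSR4 at 6.68, 8.33 and 6.72. Those of M KSR3 stood at 8.06, 8.45 and 8.26, and those of M KSR5 at 7.15, 6.27 and 7.08. M KSR3 was the line closest to TX 2i ESCs, and its 3 libraries did not overlap those of the next line, F KSR2. The difference of the 4 lines from TX 2i ESCs was -1.57 (SE 0.31, limma adjusted p = 0.00157).

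The remaining 6 factors did not pass the test, and their intervals show what the data allow. Klf2 differed by -0.74 (95% interval -1.33 to -0.15, limma adjusted p = 0.0653), with 8 of 12 KSR-iPSC libraries below all TX 2i libraries. Its TX 2i libraries themselves spread from 8.29 to 9.13, and without TX 2i replicate 2, the low one, Klf2 was called lower, by -1.02 (adjusted p = 0.0393), and without TX 2i replicate 1 or 3 it stood at -0.60 (adjusted p = 0.262 and 0.263). It was also called without F KSR2 replicate 3, the highest library of that line, at -0.87 (adjusted p = 0.00623). By sex, Klf2 was called in the male lines (-0.96, adjusted p = 0.0293) and not in the female lines (-0.52, adjusted p = 0.269). Tbx3 differed by -0.90 (interval -1.74 to -0.06, limma adjusted p = 0.118). It was called at -1.05 (adjusted p = 0.033) when M KSR5 replicate 3 was left out, and stood at -0.72 (adjusted p = 0.353) without TX 2i replicate 1. Zfp42 differed by -0.52 (interval -0.95 to -0.10, limma adjusted p = 0.0683), with 6 of 12 libraries below all TX 2i libraries, and was called at -0.59 (adjusted p = 0.0226) without F KSR4 replicate 1. Without TX 2i replicate 3 it stood at -0.40 (adjusted p = 0.295), and by sex it was called in the female lines (-0.74, adjusted p = 0.0276) and not in the male lines (-0.31, adjusted p = 0.334). Neither Klf2 nor Zfp42 was called in the direct test of female against male lines given further on.

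Esrrb, Klf5 and Sall4 lay closest to the 2i level. Esrrb, which ranged from 8.90 to 9.25 in TX 2i ESCs and from 8.22 to 9.44 in KSR-iPSCs, differed by -0.24 (interval -0.57 to 0.08, limma adjusted p = 0.277). Klf5 differed by 0.25 (interval -0.28 to 0.78, adjusted p = 0.528 by limma), with 7 of 12 KSR-iPSC libraries above all TX 2i libraries and 3 below them. Sall4 differed by 0.33 (interval -0.16 to 0.82, adjusted p = 0.343 by limma), with no KSR-iPSC library below the TX 2i libraries, whose lowest, replicate 2, stood at 7.09. Without that library the difference of Sall4 was 0.0096 (adjusted p = 0.984), and without TX 2i replicate 1 it was 0.52 (adjusted p = 0.232). That of Klf5 was 0.12 (adjusted p = 0.859) without TX 2i replicate 2 and 0.39 (adjusted p = 0.433) without replicate 1. With all 18 libraries, the intervals of these 3 factors leave room for a decrease of at most 0.57 and a rise of at most 0.82 on the log2 scale.

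**Figure D2:**
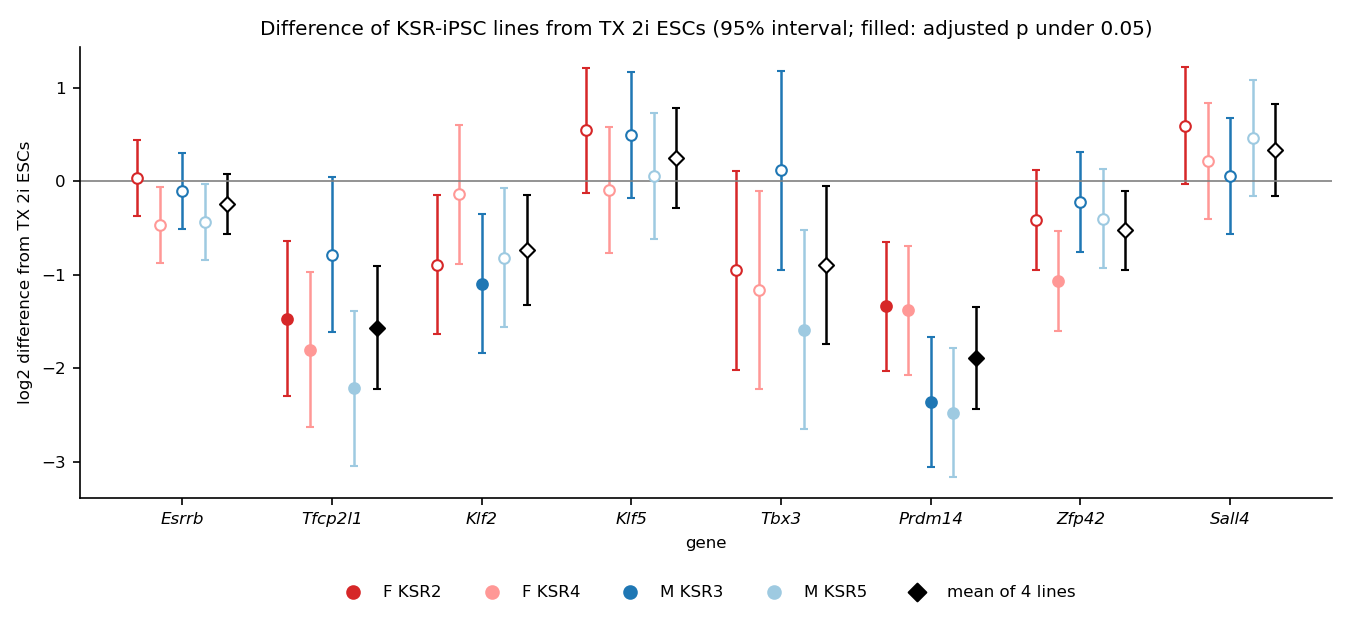
Log2 difference of each KSR-iPSC line (circles) and of the mean of the 4 lines (diamonds) from TX 2i ESCs for the 8 factors, with 95% intervals from the limma fit of all 18 libraries. Filled symbols passed the adjusted p threshold of 0.05: Prdm14 in all 4 lines and in the mean, Tfcp2l1 in 3 lines and in the mean, and Klf2, Tbx3 and Zfp42 in 1 line each.

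The same test was made line by line, with TX 2i ESCs as the shared reference. In F KSR2, 2 of the 8 were called lower, where 6.63% of all genes were: Prdm14 by -1.34 and Tfcp2l1 by -1.47. Without F KSR2 replicate 2, or without TX 2i replicate 1 or 2, Tfcp2l1 lost its call in this line (adjusted p = 0.0828, 0.0686 and 0.0589), and without TX 2i replicate 3 Prdm14 lost it (0.0589). Klf2 was called in F KSR2 without its replicate 3 (-1.41, adjusted p = 0.00581). In F KSR4, 3 were lower, where 9.57% of all genes were: Tfcp2l1 by -1.80, Prdm14 by -1.38 and Zfp42 by -1.06. Esrrb (-0.47, limma adjusted p = 0.111) and Tbx3 (-1.16, limma adjusted p = 0.13) were not called in F KSR4. The median difference over all genes tested in this line was -0.12. Tbx3 was called in F KSR4 (-1.16, adjusted p = 0.0453) when F KSR2 replicate 2 was left out of the fit.

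In M KSR3, 2 were lower, where 10.6% of all genes were: Prdm14 by -2.36 and Klf2 by -1.10. The call of Klf2 was lost without M KSR3 replicate 1 or 2 or without TX 2i replicate 1 or 3 (adjusted p = 0.0818 to 0.118). Tfcp2l1 differed by -0.79 in M KSR3 (limma adjusted p = 0.166), the smallest difference of the 4 lines, and Tbx3 by 0.12 (adjusted p = 0.912). In M KSR5, 3 were lower, where 8.84% of all genes were: Prdm14 by -2.47, Tfcp2l1 by -2.21 and Tbx3 by -1.59. The call of Tbx3 was lost without M KSR5 replicate 1 or 2 and without any of the TX 2i libraries (adjusted p = 0.0667 to 0.177), while Esrrb was called at -0.62 (adjusted p = 0.0401) without M KSR5 replicate 3, and Klf2 at -0.82 (adjusted p = 0.0359) without F KSR2 replicate 3.

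Set side by side, the lines ranked differently for each factor. For Prdm14 the order was TX 2i ESCs, then F KSR2 and F KSR4, then M KSR3 and last M KSR5, with gaps free of overlap between TX 2i ESCs and F KSR2 and between F KSR4 and M KSR3. For Tfcp2l1 the order was TX 2i ESCs, M KSR3, F KSR2, F KSR4 and M KSR5, and of the gaps between these only the first and second were free of overlap, while F KSR4 replicate 2 at 8.33 lay inside the range of M KSR3. For Klf2, TX 2i ESCs and F KSR4 led and overlapped, and F KSR4 lay clear of M KSR5, the next group, while the wider spread of F KSR2 reached into F KSR4. For Esrrb, Klf5, Tbx3, Zfp42 and Sall4 every neighbouring pair of pluripotent groups in the order overlapped.

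Between the 4 lines themselves, 0 of the 8 factors passed limma's F test, where 7.61% of 13609 genes did. At an unadjusted p below 0.05 there were 4, Prdm14, Tfcp2l1, Zfp42 and Tbx3, with adjusted p of 0.0606, 0.0983, 0.174 and 0.185. The line means of Tbx3 spanned 1.70 on the log2 scale, those of Tfcp2l1 1.42 and those of Prdm14 1.14, against 0.50 for Esrrb and 0.54 for Sall4. Prdm14 was called without F KSR4 replicate 1, 2 or 3 or without M KSR5 replicate 1 (adjusted p = 0.031 to 0.0389), Tfcp2l1 without F KSR4 replicate 2 (adjusted p = 0.004) and Zfp42 without F KSR4 replicate 1 (adjusted p = 0.0412).

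The replicates of a line often differed as much as the lines did. Of the variation of Sall4 over the 12 KSR-iPSC libraries, 70.3% lay within lines, of Klf2 61.1%, of Klf5 60.8% and of Tbx3 55.8%. The share was lowest for Prdm14, at 33.8%. F KSR4 replicate 2 was the highest or the lowest of its line for each of the 8 factors, though by little for Esrrb (8.57 against 8.67 and 8.63). It was higher than the other replicates of its line for Tfcp2l1 (8.33 against 6.68 and 6.72) and Prdm14 (6.04 against 4.97 and 4.82). It was lower for Sall4 (7.25 against 8.44 and 8.16) and, for Zfp42, close to replicate 3 (7.17 and 7.32, with replicate 1 at 8.03).

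F KSR2 replicate 2 was the lowest of its line for 7 of the 8 factors, Prdm14 being the exception. Its Tbx3 level was 5.20 against 7.68 and 7.11, and its Klf2 level 7.01 against 7.88 and 8.99. In M KSR5, replicate 3 was high for Tbx3 (7.27 against 5.57 and 5.25) and for Klf5 (7.34 against 6.65 and 6.37) and low for Prdm14 (3.70 against 4.87 and 3.98). This library also had the highest fibroblast marker sum, and MEFs stood at 4.32 for Tbx3 and 2.76 for Klf5. In M KSR3 the SD of the replicates was 0.33 for Klf2 and smaller for the other 7 factors.

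**Figure D3:**
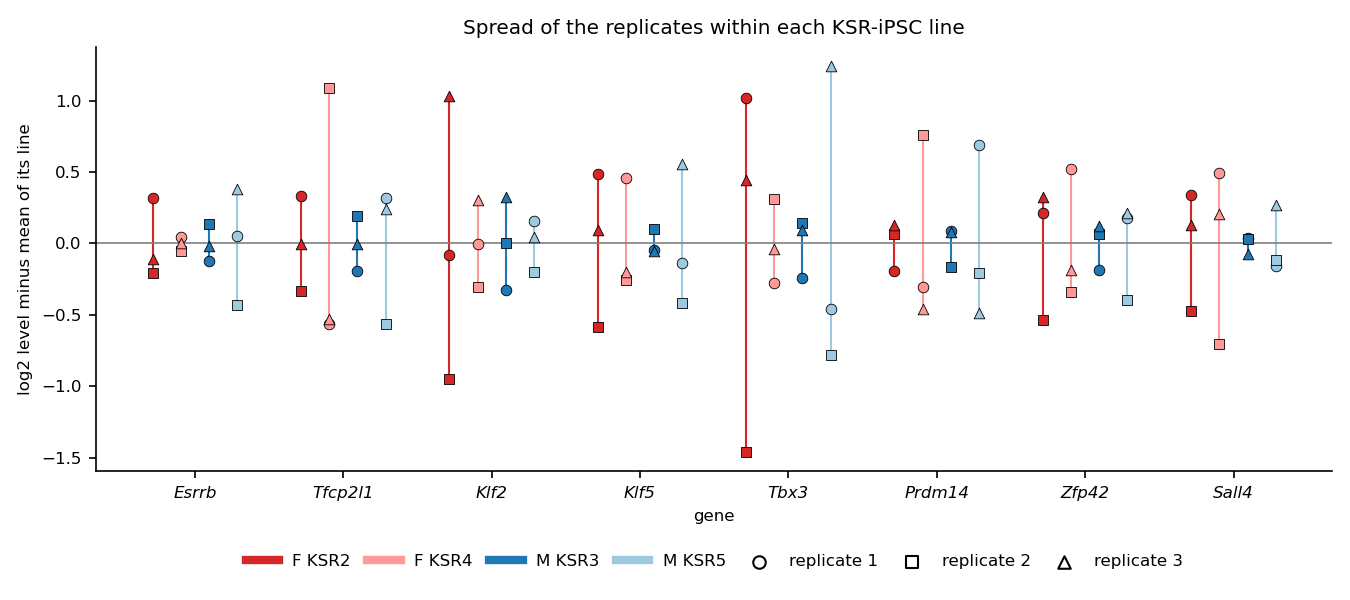
Log2 level of each KSR-iPSC library minus the mean of its line for the 8 factors. Colours mark the lines and symbols the replicates. F KSR4 replicate 2 is 1.09 above its line mean for Tfcp2l1, F KSR2 replicate 2 is 1.46 below it for Tbx3, and the M KSR3 libraries stay close to 0.

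Deviations from the line mean were shared by some factors. Over the 12 KSR-iPSC libraries, which share lines and cultures, those of Klf5 and Zfp42 correlated at 0.85, Esrrb and Klf5 at 0.81, Klf5 and Tbx3 at 0.79 and Klf5 and Sall4 at 0.78. Those of Prdm14 followed Tfcp2l1 at 0.63 and ran against Sall4 at -0.74. With 12 points from 4 clones, these values are a description.

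Over the 15 iPSC and ESC libraries, Tbx3 was most like the connexin gene Gjc1 (Pearson's r 0.89) and Klf4 (0.88), a Krüppel-like factor of the same network. Tfcp2l1 was most like Atp2b4 (0.94) and Med12l (0.92), and Klf5 like Arid5b (0.94) and Zfp568 (0.88). The genes closest to Prdm14 were Fam3a (0.94) and Elk1 (0.94), both on the X chromosome. Fam3a had mean log2 levels of 2.86 in KSR-iPSCs and 4.33 in TX 2i ESCs, and Elk1 4.93 and 5.74. Sall4 was closest to Mark2 (0.93) and Nr2c2 (0.90), Zfp42 to Ube2z (0.91) and Myst4 (0.89), Klf2 to Ubd (0.89) and Sin3b (0.85), and Esrrb to Gm14136 (0.85) and Cdc37l1 (0.84). Libraries of a line share a clone, and these r values are a description over 14632 genes searched.

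The third comparison was between the 6 female and the 6 male KSR-iPSC libraries, where 1 of the 8 factors was called, beside 2.87% of all genes. Prdm14 was higher in the female lines. Its female libraries ran from 4.82 to 6.04 with a median of 5.26, and its male libraries from 3.70 to 4.87 with a median of 4.25. Of the 6 female libraries, 5 were above all male libraries, the exception being F KSR4 replicate 3, which lay below M KSR5 replicate 1. The difference was 1.06 (SE 0.23, 95% interval 0.57 to 1.55, limma adjusted p = 0.0206), a 2.09-fold difference. The call was lost without F KSR2 replicate 3 (1.03, adjusted p = 0.0537) or M KSR3 replicate 2 (1.04, adjusted p = 0.0539), and with the 4 line means as units (adjusted p = 0.272). Against TX 2i ESCs, a female line, the female lines stood at -1.36 and the male lines at -2.42.

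For the other 7 factors the female minus male difference ran from -0.43 for Zfp42 (95% interval -0.90 to 0.04, limma adjusted p = 0.315) to 0.44 for Klf2 (interval -0.16 to 1.04, adjusted p = 0.435 by limma). Tbx3 had the widest interval, -1.32 to 0.68. Over autosomal genes with a mean log2 level above 2 in the iPSCs and ESCs the median difference was -0.12, and over those of Prdm14's own chromosome 1 it was -0.33. Against TX 2i ESCs, the chromosome 1 median was 0.54 in M KSR3, 0.04 in M KSR5, 0.02 in F KSR2 and -0.16 in F KSR4. The part of chromosome 1 in the difference of Prdm14 was not tested.

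The fourth question was which allele each factor was read from. Reads that carry a SNP of either genome were split by the authors into maternal (BL6) and paternal (CAST) reads, and the maternal share is given here as a percentage of allelic reads, with 95% Wilson intervals that cover counting error only. BL6 was the mother and CAST the father in every group, so that a difference between the strains and one between the parents cannot be told apart. Genes around each factor, within 5 Mb, show the share without the factor, and the share of its whole chromosome includes it.

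Zfp42 and Prdm14 were read mostly from the paternal allele in every pluripotent group. The maternal share of Zfp42 was 21.3% ± 2.23 (SD, n = 3) in TX 2i ESCs, 18.8% ± 4.55 in F KSR2, 24.4% ± 1.68 in M KSR3 and 16.7% ± 2.32 in M KSR5. For F KSR4 it was 38.3% ± 18.5, with single libraries at 31.4%, 59.3% and 24.3%. The library at 59.3% (interval 56.1 to 62.3%, 967 allelic reads) was replicate 2, the only one of 15 in which the maternal allele of Zfp42 gave more reads. The 75 genes around Zfp42 stood at 48.7 to 50.9% in F KSR2, M KSR5 and TX 2i ESCs and at 62.2% in F KSR4 and 64.7% in M KSR3.

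For Prdm14 the maternal share was 25.6% ± 2.62 (SD, n = 3) in TX 2i ESCs, 24.8% ± 5.28 in F KSR2 and 26.6% ± 10.8 in F KSR4. It was 30.2% ± 5.15 in M KSR3 and 12.2% ± 2.42 in M KSR5, from 127 to 1031 allelic reads per library. The 3 libraries of M KSR5, at 10.2 to 14.9%, were below all others. In M KSR3 the 50 genes around Prdm14 stood at 67.8%, and in the other groups at 50.3 to 51.4%.

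Tfcp2l1 leaned the other way. Its maternal share was 61.6% ± 0.985 (SD, n = 3) in TX 2i ESCs, 67.4% ± 1.08 in F KSR2 and 63.8% ± 1.54 in F KSR4. Among the male lines, M KSR3 stood at 79.6% ± 0.885 and M KSR5 at 70.1% ± 3.25. All 12 KSR-iPSC libraries were above the 3 TX 2i libraries, which reached 62.5%. Chromosome 1 as a whole was at 68.0% maternal in M KSR3 and at 51.5 to 52.0% in the other pluripotent groups. Esrrb, Klf5, Tbx3 and Sall4 had group means between 43.1 and 56.0% in the iPSCs and ESCs. Within F KSR4, replicate 2 leaned to the maternal allele for Esrrb (61.8%, interval 58.8 to 64.7%) and Sall4 (60.9%, interval 57.4 to 64.3%), while their chromosomes 12 and 2 stood at 50.0 and 52.3% in that library. Klf2 followed its chromosome, with 64.0% in F KSR4 and 63.5% in M KSR3 beside 62.8 and 65.3% for chromosome 8.

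**Figure D4:**
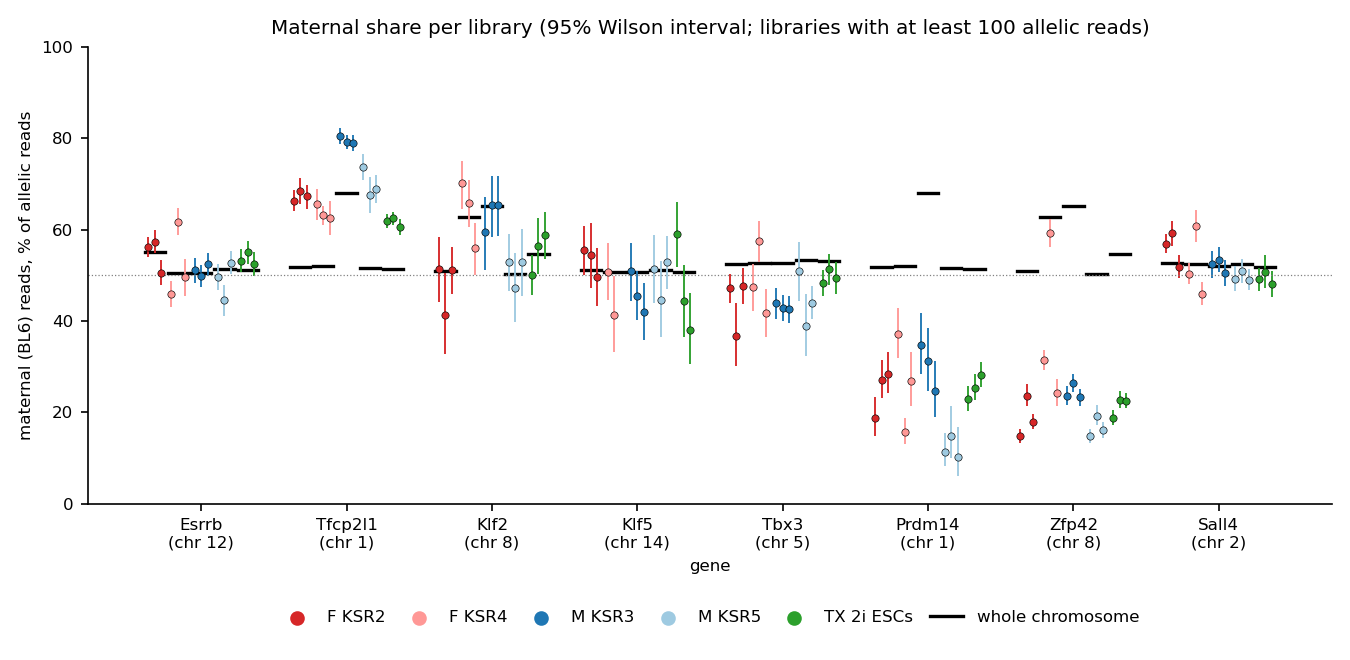
Maternal (BL6) reads as a percentage of allelic reads for the 8 factors in each iPSC and ESC library (points with 95% Wilson intervals, libraries with at least 100 allelic reads) beside the mean share of the whole chromosome (black bars). Prdm14 and Zfp42 lie below their chromosomes and Tfcp2l1 above its own in all groups, and Zfp42 in F KSR4 replicate 2 stands at 59.3%.

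Taken allele by allele, Prdm14 was lower than in TX 2i ESCs on both. Scaled to all reads of the library, maternal reads differed by -2.12 and paternal ones by -1.86 on the log2 scale in the mean of the 4 lines, and all 12 KSR-iPSC libraries were below all TX 2i libraries for either allele. In M KSR5 the maternal allele differed by -3.51 and the paternal by -2.19. Tfcp2l1 was also lower on both alleles, by -1.37 for the maternal and -1.95 for the paternal, again in 12 of 12 libraries each. M KSR3, the line in which the total of Tfcp2l1 was not called, differed by -0.37 on the maternal and by -1.66 on the paternal allele. No test was made of the single alleles.

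These values stood beside differences of whole chromosomes. Over genes with a mean log2 level above 2 in the iPSCs and ESCs, the 583 of chromosome 1 had a median difference from TX 2i ESCs of 0.54 in M KSR3, against 0.05 for all 10202 autosomal genes, and Tfcp2l1 and Prdm14 both lie there. On chromosome 8, which holds Klf2 and Zfp42, the medians were -0.49 in F KSR2 and -0.29 in F KSR4, and 0.05 in M KSR3 and -0.24 in M KSR5. On chromosome 12, with Esrrb, F KSR2 had a median of 0.26, and on chromosomes 2, 5 and 14 the medians of the lines lay between -0.14 and 0.07. The part of these chromosomes in the levels of the factors was not tested.

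The factors were set against lists of related genes using the mean of the 4 lines minus TX 2i ESCs. Over all genes tested, 23.0% were called in this comparison, and 12.0% were called lower. Of 18 other genes of naive and general pluripotency, 4 fell, 2 rose and 12 were not called, with a median difference of -0.40. Nanog, a core factor of the network, fell by 1.78 (SE 0.30, limma adjusted p = 0.000382), and Dppa5a, a marker of ESCs, fell by 0.91. Gbx2, a target of LIF and Stat3, rose by 2.75, and Stat3 itself by 0.76.

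Of 11 formative and primed genes, 3 rose and 3 fell. Fgf5, a marker of the formative epiblast, rose by 4.15 from a mean log2 level of -3.59 in TX 2i ESCs, close to that of 1 read. Its mean in KSR-iPSCs was 0.56 (SD 2.59), below that in MEFs at 1.75. Dnmt3a, a de novo DNA methyltransferase, rose by 1.59, while Cdh2, or N-cadherin, fell by 1.61 and the neural and pluripotency gene Sox3 by 1.35. The median difference of this list was 0.53. Of 7 readouts of the signals that 2i and LIF act on, 5 rose and 1 fell, with a median of 5.30. Spry4 and Etv4, which FGF and ERK induce, rose by 9.22 and 6.63, from mean log2 levels of -2.82 and 0.29 in TX 2i ESCs. That of Spry4 was close to the level of 1 read, so that the size of its rise is uncertain. Etv5, on the same list, was not called, at -0.55, and Axin2, a target of beta-catenin, fell by 1.13.

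Relatives of the 8 factors from the same protein families moved in both directions. Of 20 paralogues 19 were tested, 3 rose, 2 fell and 14 were not called, with a median difference of 0.12. Klf3 rose by 0.86 and Yy1, from which Zfp42 arose as a retroposed copy, by 0.48, while Sall3 fell by 2.38 and Tbx20 fell by 2.16. All differences in these lists share the TX 2i libraries with those of the factors and are no independent evidence.

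Markers of other cell types were read in the same comparison. Of 14 fibroblast markers 5 rose and 1 fell, among them Pdgfra by 3.88, while Thy1 fell by 1.57. Col3a1, also called higher, had 0 reads in all 3 TX 2i libraries and 3 to 428 in the KSR-iPSC libraries. Of the primitive endoderm markers Sox7 rose by 5.54, from 1 to 5 reads per TX 2i library, and Gata6 by 3.98, from 3 to 17. Among KSR-iPSCs the summed level of the list was highest in the M KSR3 libraries, at 177.1 to 216.0 RPM. MEFs stood at 125.1 to 177.4 RPM for this list. Of 6 trophectoderm markers tested 1 rose, Krt7 by 2.99, and of 3 neural markers tested 2 rose, Pax6 from a mean log2 level of -2.49 to 1.72 and Sox1 by 1.05. Trophectoderm markers summed to 12.1 to 82.0 RPM in KSR-iPSCs and 18.6 to 26.2 RPM in TX 2i ESCs, and neural markers to 37.8 to 128.0 and 50.8 to 133.3 RPM.

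**Figure D5:**
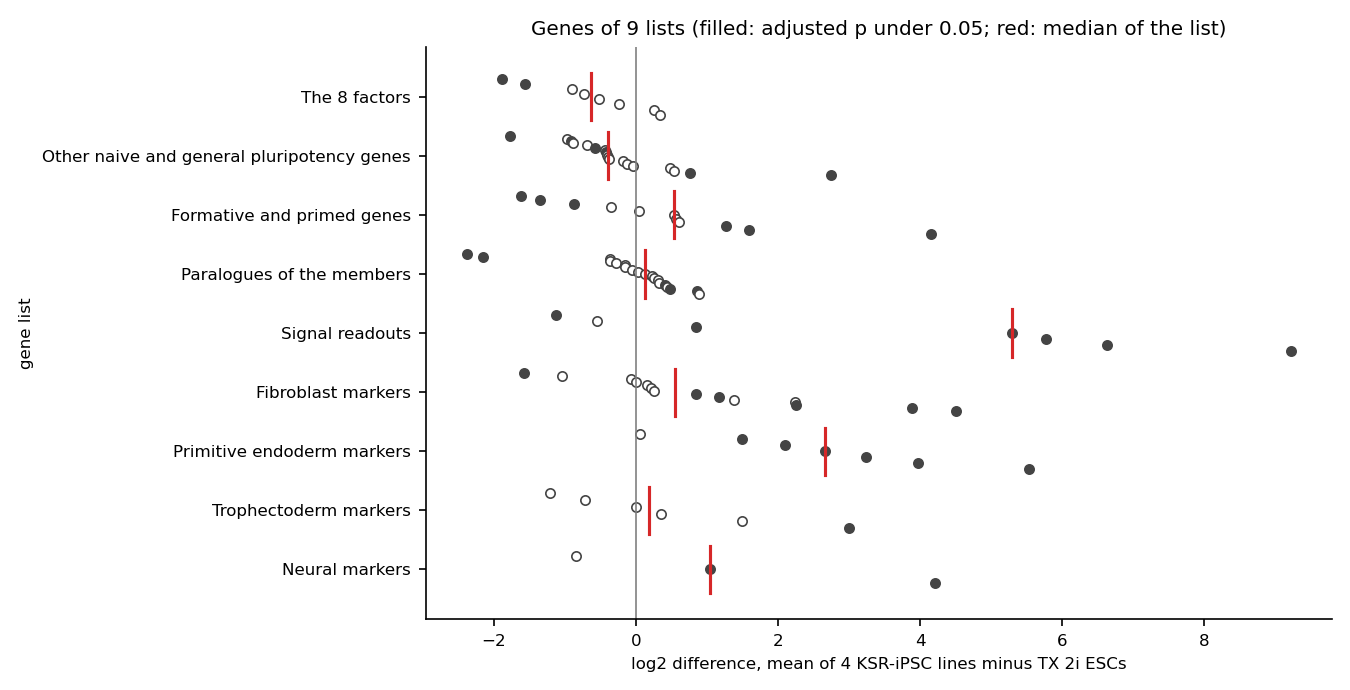
Log2 difference of the mean of the 4 KSR-iPSC lines from TX 2i ESCs for each gene tested in 9 lists (points, filled where the adjusted p was below 0.05) with the median of each list (red). The 8 factors have a median of -0.63, the signal readouts one of 5.30 and the primitive endoderm markers one of 2.66.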

How the data were processed

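The 8 factors and the gene lists were chosen with earlier results of these data known. Per the labels and the study's methods, strand-specific libraries were trimmed by the authors (Trim Galore 0.6.1), aligned with HISAT2 2.1.0 to GRCm38, and counted on genes in SeqMonk, and the authors deposited log2 RPM of 25965 genes in 72 columns, for all reads, reads without a SNP, and BL6 and CAST reads. No length correction is in the values, and values are relative to the library's total. Whole reads were recovered by undoing the logarithm: 99.957 to 100% of values lay within 0.05 read of a whole number. The deposited log2 values of 18 libraries were fitted with limma 3.58.1 (R 4.3.3, intensity trend, 1 mean per group) for 14632 genes above a log2 value of 0 in at least 3 libraries, and the 12 KSR-iPSC libraries alone (13609 genes) for sex and for the F test, two-sided, at a Benjamini-Hochberg adjusted p of 0.05. Against MEFs and TX 2i ESCs and in the F test, the p-values measure the spread between replicates of 1 line each. The test of sex pooled the libraries of 2 lines per sex. Its p-values mix the spread between lines with that between replicates, and they treat libraries of the same line as independent. The fits were tested on simulated data. RPKM used the union of GENCODE vM21 exons. Named genes of the other lists are up to 2 called genes with the largest increase and 2 with the largest decrease, and the 2 genes most correlated with each factor. Etv5 and some cell type markers are named in addition. The alternatives were an added 1 RPM, no filter or a filter at 2, limma-voom on recovered reads, median-of-ratios scaling, a replicate block, single libraries left out, line means as units, no MEFs in the fit, and lines of 1 sex, of which that of the male lines was chosen after seeing the data. Methylation samples were not analysed here. Python 3.11.15 with pandas 2.3.3 and scipy 1.17.1 did the rest.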

Additional observations from a re-analysis of the deposited data

Results flagged for a closer look

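The difference of Prdm14 from TX 2i ESCs was not the same in the female and the male KSR-iPSC lines: female minus male, it was 1.06 on the log2 scale (limma adjusted p = 0.0206 over 13609 genes), with 5 of 6 female libraries above all 6 male libraries. Sex goes with embryo and clone here, with 2 lines per sex, and with the 4 line means as units the adjusted p was 0.272. Dixon's ratio, taken over the 6 libraries of each sex and so over 2 lines with different means, passed its limit for none of the 8 factors, and single lines with 3 libraries were not tested.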

How the results depend on the processing

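All 8 factors were higher than in MEFs under each of 25 alternatives for KSR-iPSCs and 25 for TX 2i ESCs. Against TX 2i ESCs, 2 factors were called in the KSR-iPSCs, 2 to 3 in 26 alternatives, 4 with a replicate block (Klf2 and Zfp42 in addition) and 0 with line means as units, a fit with 1 value per line (adjusted p = 0.177 for Prdm14 and 0.191 for Tfcp2l1). Replicates of the same number in different groups had deviations from their group means that correlated weakly (median r 0.062, range -0.349 to 0.507). For different numbers the median r was -0.0267 (range -0.539 to 0.42). The numbers were not taken to pair the libraries, and the replicate block is given as an alternative. In F KSR4 3 to 4 factors were called and in M KSR5 2 to 4, and these were not always the same: in M KSR5, Tbx3 lost its call in 6 alternatives, and Esrrb and Klf2 gained one in 1 each. In F KSR2 the count was 1 to 3 when single libraries were left out, and in M KSR3 1 to 2, with 1 also without a filter on low values. Among the 4 lines 0 to 2 factors were called when single libraries were left out. Between the sexes the count was 0 to 1 when single libraries were left out and 0 with line means as units. The differences between the sexes that were not called changed sign when single libraries were left out for Esrrb (-0.0686 to 0.1108), Tfcp2l1 (-0.3884 to 0.0474) and Klf5 (-0.2161 to 0.0603), and for Klf5 under median-of-ratios scaling (0.0455). That scaling moved all differences by 0.10 between the sexes, by 0.14 for F KSR4, by -0.18 for KSR-iPSCs against MEFs and by -0.20 for TX 2i ESCs against MEFs. Apart from the fits named here the cause of a lost call was not tested. With 3 libraries of 1 ESC line, differences between the lines and TX 2i ESCs cannot be told apart from those of that line.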
